A study of Mus musculus with 12 samples.

Results

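The genes of oxygen storage and oxygen sensing Mb, Egln1, Egln2, Egln3, Hif1a, Hif1an, Epas1 and Vhl were described in RNA from the triceps brachii, a muscle of the upper forelimb. The genes were chosen by their known roles, after earlier results of the same data had shown higher Mb and Egln3 in active mice and lower Mb in myostatin-reduced mice. Those differences are therefore given as values without a test, and the tests below concern the other genes, the other comparisons and the interaction. All 8 members were among the 10187 genes of the table, and 7 of the 8 were among the 7247 genes whose mean reached 10 normalized reads. Vhl was below that minimum. The 12 male C57/BL6 mice formed 4 groups of 3, named by activity and then genotype. IW and IM are the inactive groups and AW and AM the active groups, W standing for wild-type mice and M for mice with reduced myostatin. The labels call inactive mice sedentary, wild-type mice control and myostatin-reduced mice Mstn deficient. Every mouse, wild-type included, was fed chow with 0.025% tamoxifen for 6 weeks from 4 months of age. The myostatin-reduced mice carried a floxed Mstn gene that Cre recombinase excised after tamoxifen. The promoter that drove Cre, and whether the wild-type mice carried Cre, are not given in the sources used here. Active mice were moved at 6 months to individual cages with a running wheel for 12 weeks. How the inactive mice were caged during those weeks is not given in the sources used here, so housing and running cannot be told apart. The myostatin-reduced and wild-type mice were matched for running.

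Myoglobin, the product of Mb, is the haem protein that binds oxygen inside muscle fibres and is most abundant in oxidative fibres. The Egln genes encode the prolyl hydroxylases (PHD2, PHD1 and PHD3 for Egln1, Egln2 and Egln3), which use oxygen to hydroxylate the alpha subunits of the hypoxia-inducible factors, HIF-1alpha from Hif1a and HIF-2alpha from Epas1. The hydroxylated subunits are bound by the Vhl protein, the recognition part of a ubiquitin ligase, and are degraded. Hif1an encodes FIH, an asparaginyl hydroxylase that blocks the binding of the coactivators Ep300 and Crebbp to HIF. HIF activity is set largely by protein stability, which mRNA levels do not show, and Egln3 and Egln1 are themselves known HIF targets.

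Mb lies on chr15:76845919-76881100, Egln1 on chr8:127432496-127473154, Egln2 on chr7:27943677-27951821 and Egln3 on chr12:55279968-55304847, all on the minus strand (NCBIM37, mm9). Hif1a on chr12:75002362-75048517, Hif1an on chr19:44637340-44650764, Epas1 on chr17:87153247-87232750 and Vhl on chr6:113573953-113581627 lie on the plus strand. All 8 are annotated as protein-coding genes, and reads in their exons were counted. Some exons overlap a gene on the opposite strand, which Mb does with Apol6 over 64 bases, Egln2 with Cyp2t4 over 11 bases and Hif1a with the noncoding Gm15283 over 330.0 bases. Whether the counting used strand was not stated, so reads from those bases cannot be told apart.

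The 250 bases before the start of the 3 Egln genes and of Mb are printed because the Egln genes differ in their response to activity below, and Egln3 and Mb are the members with the largest differences. The sequences come from RefSeq (GRCm38.p6, a later build than that of the reads) and run 5′ to 3′ on the strand of the gene. Capitals mark the core letters of a hypoxia response element (ACGTG or GCGTG on either strand) in the Egln genes. In Mb they mark a CCAC box (CCCACCCC on either strand), a motif known from muscle promoters. The Mb window, chr15:77022788-77023037, is 1 of 3 listed, of which another overlaps it and holds the same box and the other holds neither motif. The windows of the Egln genes are chr8:124949255-124949504 for Egln1, chr7:27166803-27167052 for Egln2 and chr12:54203875-54204124 for Egln3.
Egln1: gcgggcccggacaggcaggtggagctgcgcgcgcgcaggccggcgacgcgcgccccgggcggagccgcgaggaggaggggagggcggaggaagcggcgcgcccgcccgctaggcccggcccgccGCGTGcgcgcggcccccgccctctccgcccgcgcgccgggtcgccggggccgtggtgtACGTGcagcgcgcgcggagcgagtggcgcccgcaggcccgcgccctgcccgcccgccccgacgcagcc
Egln2: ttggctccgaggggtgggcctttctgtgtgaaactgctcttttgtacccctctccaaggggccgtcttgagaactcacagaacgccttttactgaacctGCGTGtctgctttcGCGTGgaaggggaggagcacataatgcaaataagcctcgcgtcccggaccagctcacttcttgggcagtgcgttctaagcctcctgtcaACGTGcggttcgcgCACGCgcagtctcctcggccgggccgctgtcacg
Egln3: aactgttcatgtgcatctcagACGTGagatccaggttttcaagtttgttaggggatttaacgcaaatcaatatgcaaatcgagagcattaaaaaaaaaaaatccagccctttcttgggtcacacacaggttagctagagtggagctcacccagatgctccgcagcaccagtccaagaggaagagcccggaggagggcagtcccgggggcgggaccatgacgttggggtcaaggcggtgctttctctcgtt
Mb: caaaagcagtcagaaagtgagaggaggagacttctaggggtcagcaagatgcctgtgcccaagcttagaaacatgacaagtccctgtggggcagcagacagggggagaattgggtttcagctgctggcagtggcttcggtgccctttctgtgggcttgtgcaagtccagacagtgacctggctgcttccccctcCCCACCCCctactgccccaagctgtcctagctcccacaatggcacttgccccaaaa

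Egln3 held 1 core match, at -229 from the start, Egln1 held 2, at -126 and -68, and Egln2 held 4, at -151, -137, -48 and -34. A second listed window of Egln2 held 1 core match, at -116, as many as Egln3, so the number of matches depends on the window. The Mb window held no core match and a CCAC box at -56. The Hif1a window held 3 core matches, 2 of which are the strands of a single palindrome, and those of Hif1an and Vhl held none. CCAC boxes also lay in the printed Egln2 window at -240, where the box is not in capitals, in the other Egln2 window at -63 and in the Hif1a window at -211 and -61. Of the 8 members 7 had an entry, with 10 windows in all, and Epas1 had no entry. Over all 32851 windows of the same length 38.6% held a core match and 8.52% a CCAC box, so these letters are common. A match describes the letters and not a bound site.

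Estimated depth was 9023561 to 12188516 reads per mouse, and 3 reads corresponded to 0.231 to 0.316 normalized reads, well below every value of the members. Values are normalized reads, which the authors scaled between mice and did not divide by gene length. The labels were checked on Mstn, the targeted gene, which had a percent difference of -84.9 in myostatin-reduced mice, with every myostatin-reduced mouse below every wild-type mouse. Skeletal muscle markers such as Ckm, Acta1 and Myh4 were abundant in every mouse, with a summed level of 116000 to 197800 over 7 genes. Mice of the same group differed in slow-fibre genes. A slow-fibre score, the mean log2 deviation of 11 slow-fibre genes from their mean over all mice, was 1.96, -1.96 and 0.09 in IW mice 1, 2 and 3 and -2.23, -1.39 and -1.79 in IM mice. In AW mice the score was -1.02, 2.33 and 2.49, and in AM mice 1.09, 2.06 and -1.63. AW mouse 1 and AM mouse 3 thus stood apart from their groups, and the IW mice were spread widely, from -1.96 to 1.96. Results that change without 1 mouse are given both ways. In bulk muscle, fewer cells of a type and less RNA per cell cannot be told apart.

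Mb was lowest in the inactive myostatin-reduced mice, and every active mouse was above all of them. IW mice 1, 2 and 3 had 2991, 1098 and 1825 normalized reads of Mb. IM mice had 531, 565 and 284. AW mice had 2261, 4842 and 4749.8, and AM mice had 2704, 3565 and 1969.6. All IM mice were below all IW and all AM mice, whereas the AW values overlapped the IW values. For such separations of 3 mice from 3, here and below, the share over all genes was not counted. The group means were 1971 ± 955 in IW, 460.1 ± 153 in IM, 3951 ± 1460 in AW and 2746 ± 798 in AM (SD, n = 3). Mb was thus 2.00-fold higher with activity in wild-type mice and 5.97-fold higher in myostatin-reduced mice. Inactive wild-type mice had 4.28 times the Mb of inactive myostatin-reduced mice, and in active mice the ratio was 1.44. Within 1 group the highest mouse had 1.81 to 2.72 times the Mb of the lowest, so single mice weigh heavily on these ratios.

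The difference of the Mb response between genotypes is a comparison that the choice of genes did not use. The interaction, the log2 change with activity in myostatin-reduced mice minus that in the wild type, was 1.56 (SE 0.551, 95% interval 0.36 to 2.75, adjusted p = 0.89, limma). Its unadjusted p was under 0.05, but it did not pass the threshold after adjustment over 7247 genes, and its adjusted p was 0.375 to 1.0 over all alternatives. In IW and AM mice the slow-fibre score and Mb had the same order, and in IM and AW mice they did not. The IW mouse with the most Mb, mouse 1, had the highest slow-fibre score of its group, and IW mouse 2, with the least Mb, had the lowest. Among IM mice the lowest score was that of mouse 1, while mouse 3 had the least Mb, and among AW mice the highest score was that of mouse 3, while mouse 2 had the most Mb. With the slow-fibre score as a covariate the log2 change of Mb with activity was 1.29 in place of 1.82, and that with genotype -0.88 in place of -1.26. Whether fibre composition had a part in the Mb differences was not tested beyond these values.

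**Figure D1:**
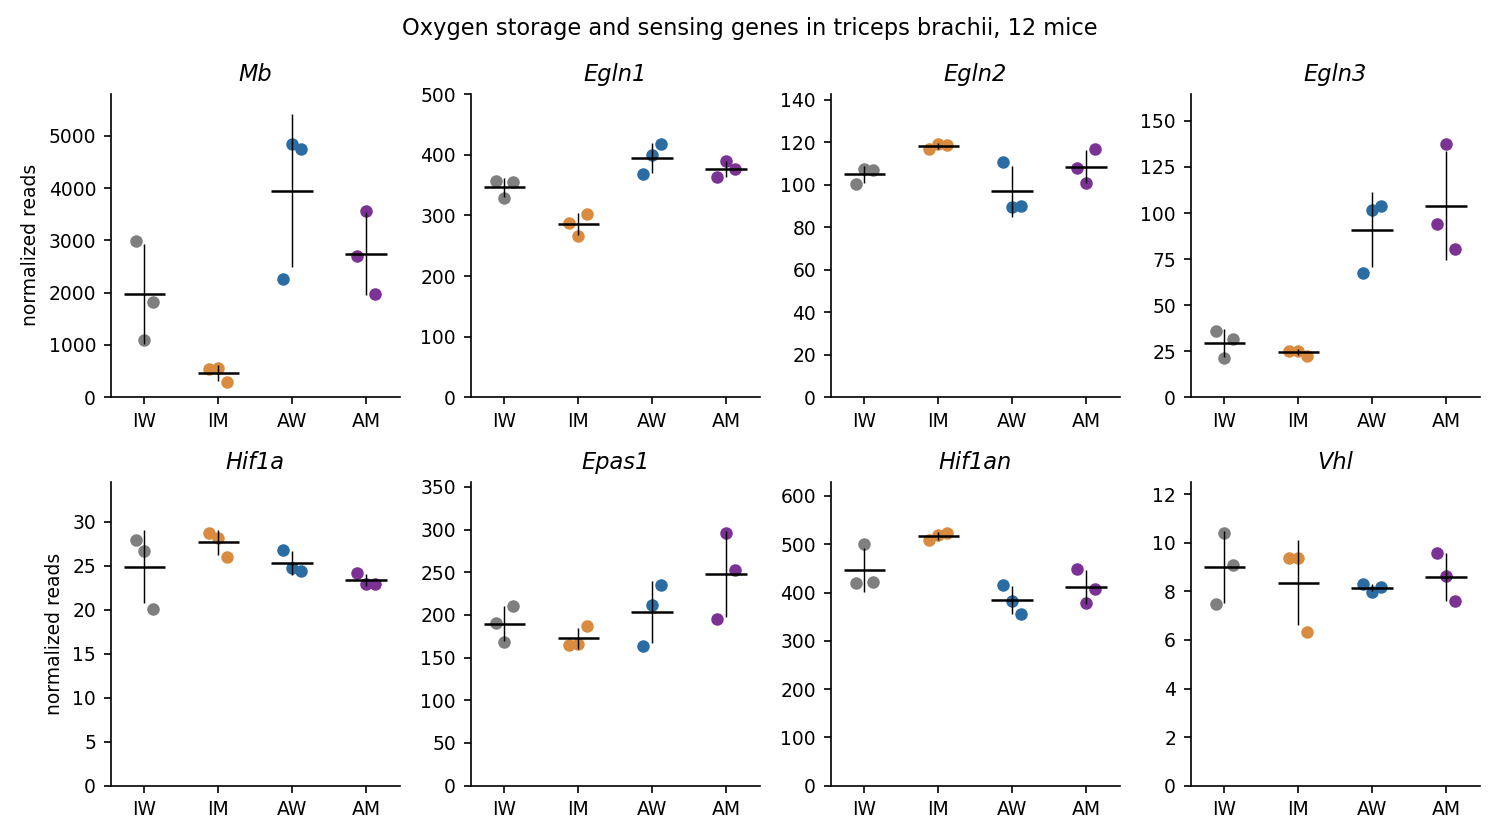
Normalized reads of the 8 members in each mouse (points), with the mean and SD of each group of 3 mice (bars), in a panel per gene whose y axis starts at 0. Egln3 and Egln1 show active mice above all inactive mice, and the 3 IM mice are the lowest for Mb.

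Egln3 was higher in every active mouse than in any inactive mouse. In IW mice 1, 2 and 3 it had 35.7, 21.1 and 31.4 normalized reads, and in IM mice 25.3, 25.3 and 22.5. In AW mice it had 67.3, 102 and 104, and in AM mice 94.2, 137 and 80.5. The lowest active mouse was AW mouse 1, which had the lowest slow-fibre score of the active wild-type mice. AM mouse 3 had the lowest score of all active mice and more Egln3 than AW mouse 1. Group means were 29.4 ± 7.49 in IW, 24.4 ± 1.61 in IM, 90.9 ± 20.5 in AW and 104.0 ± 29.7 in AM (SD, n = 3), so active mice had 3.63 times the level of inactive mice. The ratio was 3.09 in wild-type and 4.27 in myostatin-reduced mice.

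Egln3 had no detectable difference between genotypes, which was tested because the choice of genes did not rest on it. The log2 change in myostatin-reduced mice was -0.02 (95% interval -0.36 to 0.31, adjusted p = 0.944, limma), and that interval still allows a change of up to 0.36 in size. The interaction was 0.41 (95% interval -0.26 to 1.09, adjusted p = 0.89, limma), and 0.197 to 0.628 when 1 mouse was left out. The slow-fibre genes had a median log2 change of 1.80 with activity, and within the IW, AW and AM groups the mice with the highest slow-fibre scores had the most Egln3. Among IM mice, mouse 1 had the lowest score and the most Egln3. With this score as a covariate the log2 change of Egln3 with activity was 1.49 in place of 1.81. The part of fibre composition in the Egln3 values was not tested beyond this.

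Egln1 rose with activity, by a much smaller step. Its normalized reads in IW mice were 356, 329 and 355, and in IM mice 288, 266 and 303. In AW mice they were 368, 399 and 418, and in AM mice 364, 391 and 377. The inactive mice lay between 266 and 356 and the active mice between 364 and 418, with no overlap. Of all tested genes 4.29% were separated in this way. The mean of Egln1 was 22.1% higher in active mice, and the log2 change was 0.29 (SE 0.05, 95% interval 0.19 to 0.40, adjusted p = 0.00321, limma). Within myostatin-reduced mice the log2 change was 0.40 (SE 0.071, adjusted p = 0.00864, limma), a call that was lost with the endothelial score as a covariate (log2 change 0.246, adjusted p = 0.504, limma) and whose adjusted p was 0.00444 to 0.504 over all alternatives. Within wild-type mice it was 0.19 (adjusted p = 0.237, limma), and the difference between the genotypes, 0.21 (adjusted p = 0.89, limma), did not pass the test. The call for activity held in all 12 fits that left out 1 mouse, where the log2 change was 0.27 to 0.32. With the endothelial score as a covariate it was 0.20 (adjusted p = 0.119, limma), against a range of 0.000696 to 0.119 over all alternatives. With that covariate 8 of all genes were called for activity, in place of 1051. In myostatin-reduced mice 0 were called, in place of 568, so the loss was not particular to Egln1.

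Egln2, which encodes PHD1, did not pass the test for activity or genotype. IW mice had 100.4, 107 and 107 normalized reads, IM mice 117, 119 and 119, AW mice 111, 89.8 and 90.2, and AM mice 108, 101 and 117. The values of active and inactive mice overlapped. Its log2 change with activity was -0.12 (95% interval -0.25 to 0.01, adjusted p = 0.181, limma), and that with genotype was 0.17 (adjusted p = 0.116, limma). Without AW mouse 1 both passed the test, with -0.17 for activity (adjusted p = 0.0271, limma) and 0.22 for genotype (adjusted p = 0.021, limma). With the slow-fibre or the endothelial score as a covariate the log2 change of Egln2 with activity was nearer 0, at -0.029 and -0.012. The adjusted p over all alternatives was 0.0271 to 0.964 for activity and 0.021 to 0.248 for genotype.

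On the scale of normalized reads per kilobase of exon, where genes can be compared, Egln1 was the most abundant Egln gene in every group and Egln3 the least abundant in inactive mice. The share of Egln3 in the summed level of the 3 genes was 7.46% ± 1.64 in IW, 6.92% ± 0.662 in IM, 18.7% ± 3.32 in AW and 20.9% ± 4.64 in AM (SD, n = 3). Inactive mice ranged from 5.67% to 8.90% and active mice from 14.9% to 26.0%. In both active groups the share of Egln3 was thus about level with that of Egln2 on this scale. The share of Egln2 in AM mice was 21.0% ± 2.62. Egln2 held 31.9% ± 1.25 in IM mice, the highest of its group means, and 19.2% ± 3.56 in AW mice, the lowest. Egln1 held 58.0% to 67.0% as a group mean. The summed level of the 3 genes was 128 to 151 reads per kilobase in inactive and 169 to 199 in active mice. These shares carry the difference in Egln3 that chose it, and they have no test of their own. With the longest transcript as the length, the mean share of Egln3 was 6.58% in inactive and 18.6% in active mice. At that length Egln2 stood above Egln3 in AW mice (means of 46.0 and 34.2 reads per kilobase) and in AM mice (51.5 and 39.1).

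**Figure D2:**
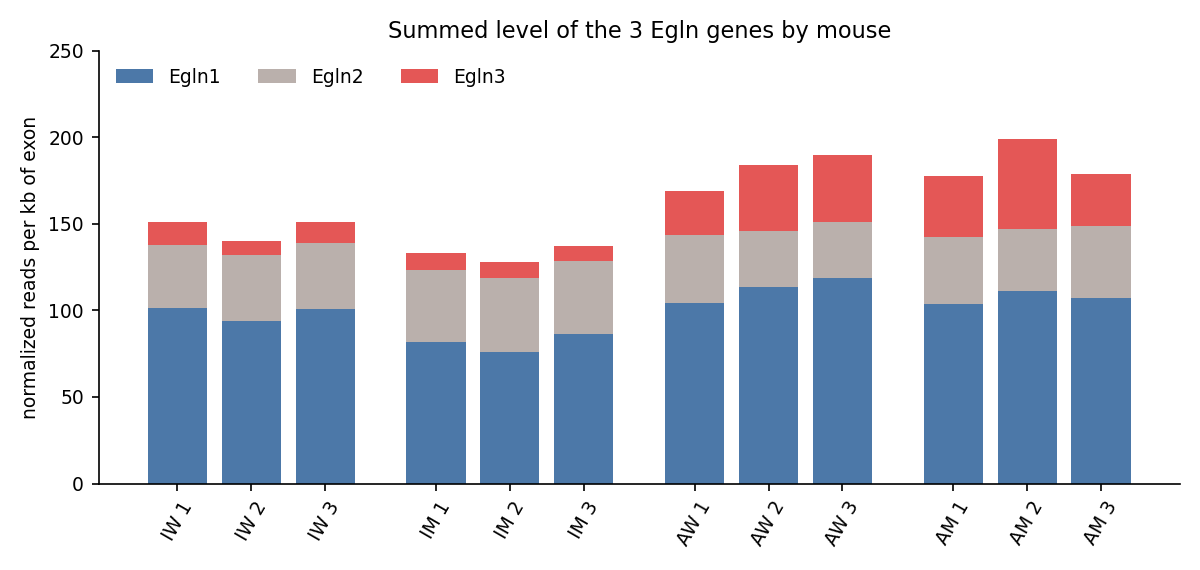
Normalized reads per kilobase of exon of Egln1, Egln2 and Egln3, stacked in a bar for each of the 12 mice, with the y axis from 0. The Egln3 part of the bar is between 5.67% and 8.90% of it in inactive mice and between 14.9% and 26.0% in active mice.

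Hif1a was present at a low and even level. Its normalized reads in IW mice were 27.95, 26.7 and 20.1, and in IM mice 28.8, 28.2 and 26.0. In AW mice they were 26.8, 24.8 and 24.4, and in AM mice 24.2, 22.95 and 23.0. Active and inactive mice overlapped, although the AM mice were all below the IM mice. The log2 change with activity was -0.10 (95% interval -0.26 to 0.06, adjusted p = 0.395, limma) and that with genotype 0.02 (95% interval -0.14 to 0.18, adjusted p = 0.892, limma). Leaving out 1 mouse gave a log2 change with activity of -0.169 without IW mouse 3 (adjusted p = 0.0633, limma) to -0.056 without IW mouse 1, and the adjusted p was 0.0633 to 0.906 over all alternatives. In myostatin-reduced mice the log2 change with activity was -0.23 (adjusted p = 0.184, limma), which did not pass the test.

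Epas1, which encodes HIF-2alpha and is known for its strong expression in endothelial cells, had its highest levels in active myostatin-reduced mice. In IW mice its normalized reads were 191, 168 and 210.1, and in IM mice 165, 166 and 187. In AW mice they were 164, 212 and 235, and in AM mice 195, 296 and 252. AM mice were all above IM mice, while AW and IW mice overlapped, AW mouse 1 having the lowest value of all 12. The mean over active mice was 1.25 times that over inactive mice. The log2 change with activity was 0.30 (SE 0.108, 95% interval 0.06 to 0.53, adjusted p = 0.085, limma) and did not pass the test. Without AW mouse 1 it was 0.37 (adjusted p = 0.0217, limma) and without AM mouse 1 it was 0.38 (adjusted p = 0.0198, limma), both past the threshold. With the replicate number as a block it was also past the threshold (0.297, adjusted p = 0.0477, limma). Its adjusted p was 0.0108 to 0.69 over all alternatives. Within myostatin-reduced mice the log2 change was 0.50 (adjusted p = 0.0629, limma), which with the replicate number as a block passed the test (adjusted p = 0.0361, limma). It passed as well without AW mouse 1 or AM mouse 1, over a range of 0.0129 to 0.941 for all alternatives.

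Endothelial markers moved with Epas1. An endothelial score, built like the slow-fibre score from 12 endothelial genes, was -0.11, -0.23 and 0.15 in IW mice 1, 2 and 3, and -0.41, -0.38 and -0.26 in IM mice. In AW mice it was -0.29, 0.23 and 0.39, and in AM mice 0, 0.59 and 0.33. AW mouse 1 and AM mouse 1, the active mice with the least Epas1, also had the lowest endothelial scores of the active mice. Of the 11 endothelial markers tested 7 rose with activity and none fell, against 14.5% of all genes called. They included Tie1 (log2 change 0.63, adjusted p = 0.0119, limma), Egfl7 (0.60, adjusted p = 0.00466, limma), Emcn (0.59, adjusted p = 0.0158, limma) and Kdr (0.53, adjusted p = 0.0281, limma). The number called was 4 when IW mouse 2, IM mouse 2, IM mouse 3, AW mouse 2, AW mouse 3 or AM mouse 2 was left out. The median log2 change of the list was 0.49, against -0.02 over all genes. The summed level of the 12 listed markers was 322.1 to 481.1 normalized reads in inactive and 357.3 to 679.4 in active mice, and no defining marker was at 0. Pecam1, an adhesion protein of endothelial junctions, ranged from 42.3 to 62.2 in inactive and from 48.5 to 92.7 in active mice, and Cdh5, the cadherin of those junctions, from 73.0 to 103 and from 73.0 to 148. With the endothelial score as a covariate the log2 change of Epas1 with activity was -0.06 (adjusted p = 0.69, limma). With that covariate 8 of all genes were called for activity, in place of 1051. The part of endothelial cells in the Epas1 values was not tested further.

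Relative to Hif1a, Epas1 was the more abundant alpha subunit in every mouse on the scale of reads per kilobase of exon. The ratio of Epas1 to Hif1a was 8.73 ± 2.50 in IW, 6.96 ± 0.886 in IM, 8.99 ± 2.00 in AW and 11.8 ± 2.68 in AM (SD, n = 3). Over all mice it lay between 6.36 and 14.3, and the inactive and active mice overlapped.

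**Figure D3:**
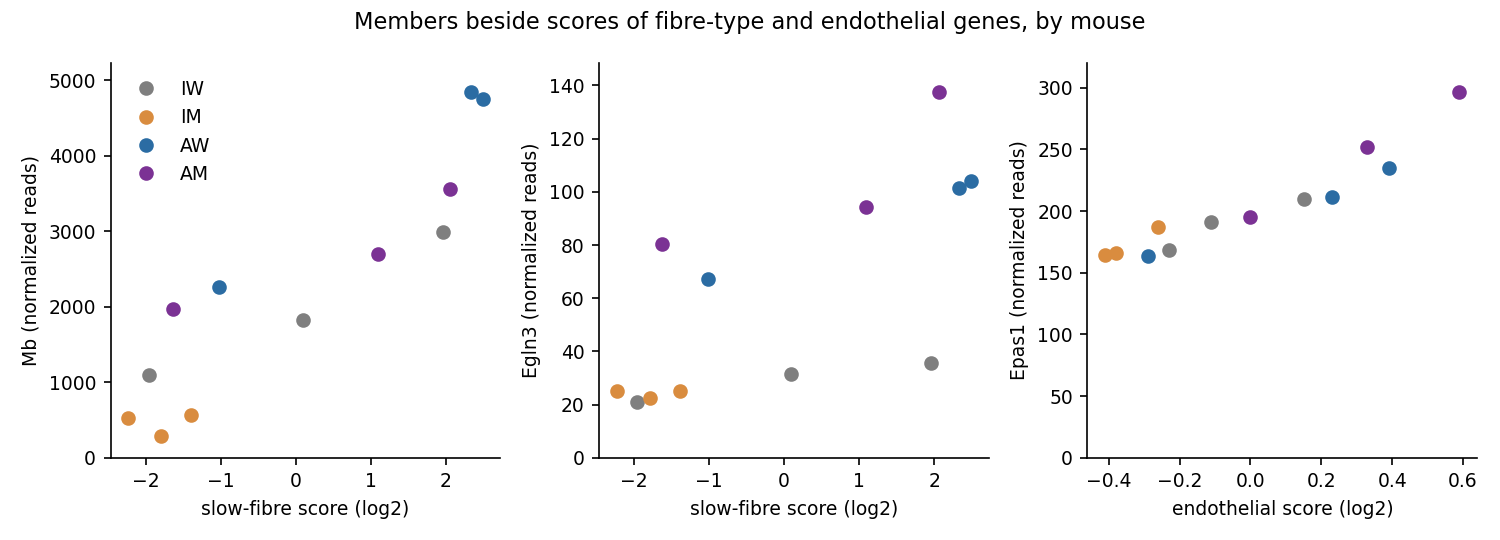
Normalized reads of Mb and Egln3 against the slow-fibre score, and of Epas1 against the endothelial score, in each mouse (mean log2 deviation of the marker genes), with the 4 groups in colour. All active mice lie above all inactive mice for Egln3, and for Epas1 AW mouse 1 and AM mouse 1, the active mice of lowest endothelial score, lie among the inactive mice.

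Hif1an, the asparaginyl hydroxylase, fell with activity, opposite in direction to Egln1. IW mice had 419, 499.8 and 421 normalized reads and IM mice had 508, 518 and 524. AW mice had 415, 383 and 356, and AM mice had 448, 379 and 407. Within each genotype all active mice were below all inactive mice, while the AM and IW ranges overlapped. Its mean was 17.4% lower in active mice, or -0.27 on the log2 scale (SE 0.062, 95% interval -0.41 to -0.14, adjusted p = 0.0127, limma). The call held in all 12 fits that left out 1 mouse, where the log2 change was -0.30 to -0.23. With the slow-fibre score as a covariate it was -0.20 (adjusted p = 0.0737, limma), and with the endothelial score it was -0.125 (adjusted p = 0.368, limma), against a range of 0.00302 to 0.368 over all alternatives. With these scores 401 and 8 of all genes were called for activity, in place of 1051.

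Within myostatin-reduced mice Hif1an fell by 0.33 on the log2 scale (SE 0.087, adjusted p = 0.0368, limma). With the slow-fibre score as a covariate the change was -0.237 (adjusted p = 0.148, limma) and with the endothelial score -0.099 (adjusted p = 0.869, limma). With these scores 187 and 0 of all genes were called in this comparison, in place of 568. The call of Hif1an was also lost when any of the 3 IM mice, AW mouse 2, AM mouse 2 or AM mouse 3 was left out, with a log2 change of -0.345 to -0.275 and an adjusted p of 0.053 to 0.164 among these fits. Over all alternatives the adjusted p was 0.0174 to 0.869. Within wild-type mice the log2 change was -0.21 (adjusted p = 0.273, limma), and the interaction was -0.12 (adjusted p = 0.908, limma). Leaving out 1 mouse gave -0.27 to -0.131 and -0.202 to -0.061 for these. The ratio of Egln1 to Hif1an in normalized reads, which is not a comparison per length, was 0.514 to 0.850 in inactive and 0.812 to 1.17 in active mice, so that the ranges overlapped between 0.812 and 0.850.

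Vhl had few reads, with 7.46, 10.4 and 9.08 normalized reads in IW mice and 9.38, 9.37 and 6.34 in IM mice. In AW mice the values were 8.31, 7.99 and 8.17, and in AM mice 9.57, 8.63 and 7.60. Every group overlapped every other group. The mean log2 difference was -0.03 between active and inactive mice (exact permutation test of mice within genotypes, two-sided p = 0.785, adjusted p = 0.865 over 2 tests) and -0.02 between genotypes (exact permutation test within activity levels, two-sided p = 0.865, adjusted p = 0.865). The smallest p that the 400 arrangements can give is 0.005.

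**Figure D4:**
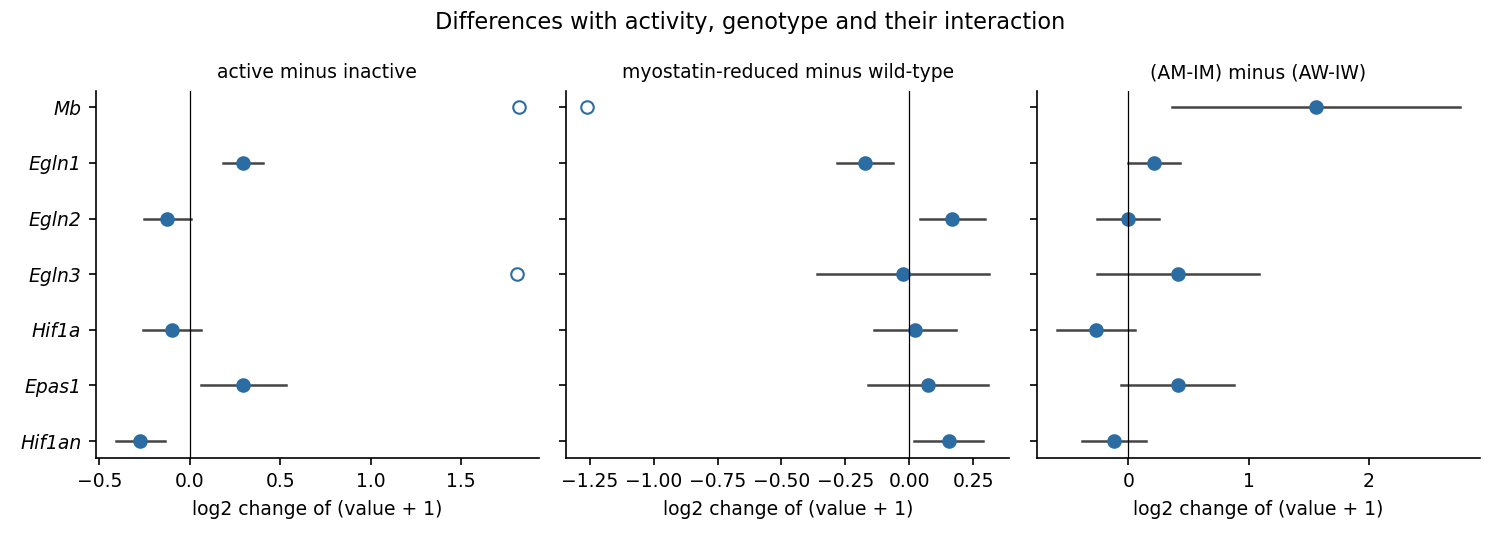
Log2 change of the tested members with activity, with genotype and for the interaction. Filled points with bars are limma estimates with 95% intervals, and open points without bars (Mb and Egln3 for activity, Mb for genotype) are values that chose the genes and have no test. The intervals of Egln1 (0.19 to 0.40) and Hif1an (-0.41 to -0.14) for activity lie on opposite sides of 0.

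Counted over the members, 2 of the 5 tested for activity were called, Egln1 as higher and Hif1an as lower, against 14.5% of all 7247 genes. The count was 4 without AW mouse 1 or with sample weights, and 3 without AM mouse 1 or with the replicate block. With the slow-fibre score it was 1, and with the endothelial score it was 0. In myostatin-reduced mice alone Egln1 and Hif1an were again the 2 of 5 called, against 7.84% of all genes. That count was 1 when any of the 3 IM mice, AW mouse 2, AM mouse 2 or AM mouse 3 was left out and with the slow-fibre score, and 0 with the endothelial score. It was 3 without AW mouse 1 or AM mouse 1, with sample weights, with a minimum mean of 50 and with the replicate block. In wild-type mice alone none of the 5 was called by limma, and 0.0276% of all genes were called. An unadjusted p under 0.05 was reached by 2 of the 5 and by 1067 of the 7247 genes. The 2 became 0 without IW mouse 2, AW mouse 2 or AW mouse 3, and 3 without AW mouse 1 or with sample weights. Comparisons within a genotype rest on 3 mice against 3. That they differ in their number of calls is no test of a difference between the genotypes.

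With genotype none of the 6 members tested was called by limma, against 5.78% of all genes. Egln1, Egln2 and Hif1an had unadjusted p-values under 0.05, as had 1628 of the 7247 genes. No member had myostatin-reduced and wild-type mice that did not overlap, which 2.39% of all genes had. Egln1 had its smallest adjusted p in the inactive mice, where all IM mice were below all IW mice, with a log2 change of -0.28 (adjusted p = 0.0612, limma). Over both activity levels its log2 change was -0.17 (adjusted p = 0.0658, limma), which became -0.20 without AW mouse 1 (adjusted p = 0.0335, limma), within a range of 0.0289 to 0.163 over all alternatives. In the inactive mice alone the change of Egln1 also passed without AW mouse 1 (adjusted p = 0.044, limma), over a range of 0.0251 to 0.236. Hif1an was higher in all IM than in all IW mice, with a log2 change of 0.21 (adjusted p = 0.232, limma). The share of all genes with IM and IW mice so separated was not counted.

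In inactive mice none of 6 members was called for genotype, and 2.51% of all genes were called. An unadjusted p under 0.05 was reached by 2 of the 6 members and by 1262 of the 7247 genes. In active mice none of 6 was called, against 0.207% of genes. None had an unadjusted p under 0.05, which 894 of the 7247 genes had. Egln1 in active mice had a log2 change of -0.06 with genotype (95% interval -0.22 to 0.09, adjusted p = 0.757, limma), and -0.115 to -0.023 when 1 mouse was left out. For the interaction none of the 7 members was called by limma, and 0.0% of all genes were called. An unadjusted p under 0.05 was reached by 1 member (Mb) and by 297 of the 7247 genes. The member count at that level was 3 without IW mouse 2, AW mouse 3 or AM mouse 1. It was 2 without IW mouse 1 or IM mouse 3 and 0 with the endothelial score.

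The other regulators of the pathway were read from a list of 18 genes, of which 13 were tested. None rose with activity and 2 fell, a share close to the 14.5% of all genes called. Those were the coactivators Crebbp, at -0.43 on the log2 scale (SE 0.062, adjusted p = 0.00179, limma), and Ep300, with -0.24 (SE 0.064, adjusted p = 0.0272, limma). Crebbp had means of 34.9 ± 0.765 in IW, 33.9 ± 3.62 in IM, 26.4 ± 2.30 in AW and 24.1 ± 1.30 in AM (SD, n = 3). Both proteins are acetyltransferases that many transcription factors recruit, and FIH blocks their binding to HIF. The median log2 change of the list was -0.04, against -0.02 over all genes. With genotype, for which 5.78% of all genes were called, 1 of 13 rose, Usp20, a deubiquitinase known to act on HIF-1alpha, by 0.46 (adjusted p = 0.0031, limma), and none fell. The number called for activity was 1 when IW mouse 2, IM mouse 1, IM mouse 2, AW mouse 2, AM mouse 2 or AM mouse 3 was left out, and that for genotype was 2 without AW mouse 1, AW mouse 2 or AM mouse 2.

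Among known HIF target genes as many rose as fell with activity. Of 45 listed, 25 were tested, and 2 rose and 2 fell, again a share close to the 14.5% of all genes called. Flt1, a receptor of vascular endothelial growth factor, rose by 0.47 on the log2 scale (adjusted p = 0.0486, limma), and Gbe1, the glycogen branching enzyme, rose by 0.41 (adjusted p = 0.0104, limma). Slc16a3, a lactate exporter, fell by 0.35 (adjusted p = 0.0196, limma) and Pfkfb4, a regulator of glycolysis, fell by 0.26 (adjusted p = 0.0438, limma). The median of the list was 0.03, with 14 of 25 above 0, against a median of -0.02 over all genes. Leaving out AW mouse 1 raised the number called to 11, leaving out IM mouse 1, AW mouse 2, AW mouse 3 or AM mouse 2 left 1, and leaving out IW mouse 2, IW mouse 3, IM mouse 2 or IM mouse 3 left 2. With genotype 2 of the 25 were called, against 5.78% of all genes. Vegfa, the growth factor itself, fell by 0.38 (adjusted p = 0.0382, limma) and Pfkfb4 rose by 0.38 (adjusted p = 0.0164, limma). Vegfa had means of 290.4 ± 34.2 in IW, 196.3 ± 30.0 in IM, 307.2 ± 10.9 in AW and 272.8 ± 46.3 in AM (SD, n = 3). The number called for genotype became 6 without AW mouse 1, and it was 1 when any of IW mice 1 and 3, IM mice 2 and 3, AW mice 2 and 3 or AM mice 1 and 3 was left out.

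Myoglobin carries haem, and 2 of the 8 tested enzymes of haem synthesis rose with activity while none fell, against 14.5% of all genes called in either direction. Alas1, the rate-limiting enzyme of haem synthesis in tissues other than red cells, had means of 134.6 ± 4.24 in IW, 138.4 ± 16.5 in IM, 153.3 ± 3.51 in AW and 173.6 ± 6.79 in AM (SD, n = 3). Its log2 change was 0.26 (SE 0.056, adjusted p = 0.0106, limma), and that of Alad, the next enzyme, was 0.27 (SE 0.074, adjusted p = 0.0299, limma). The median of the list was 0.07. When any of IW mouse 2, the 3 IM mice, AW mice 2 and 3 or AM mouse 2 was left out, 1 of the 8 was called. None of the 8 was called with genotype by limma, and Alas1 had the smallest p among them (log2 change 0.10, adjusted p = 0.293, limma). Of 6 globins other than Mb 1, Cygb, was in the table, and its log2 change with activity was 0.20 (adjusted p = 0.172, limma).

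**Figure D5:**
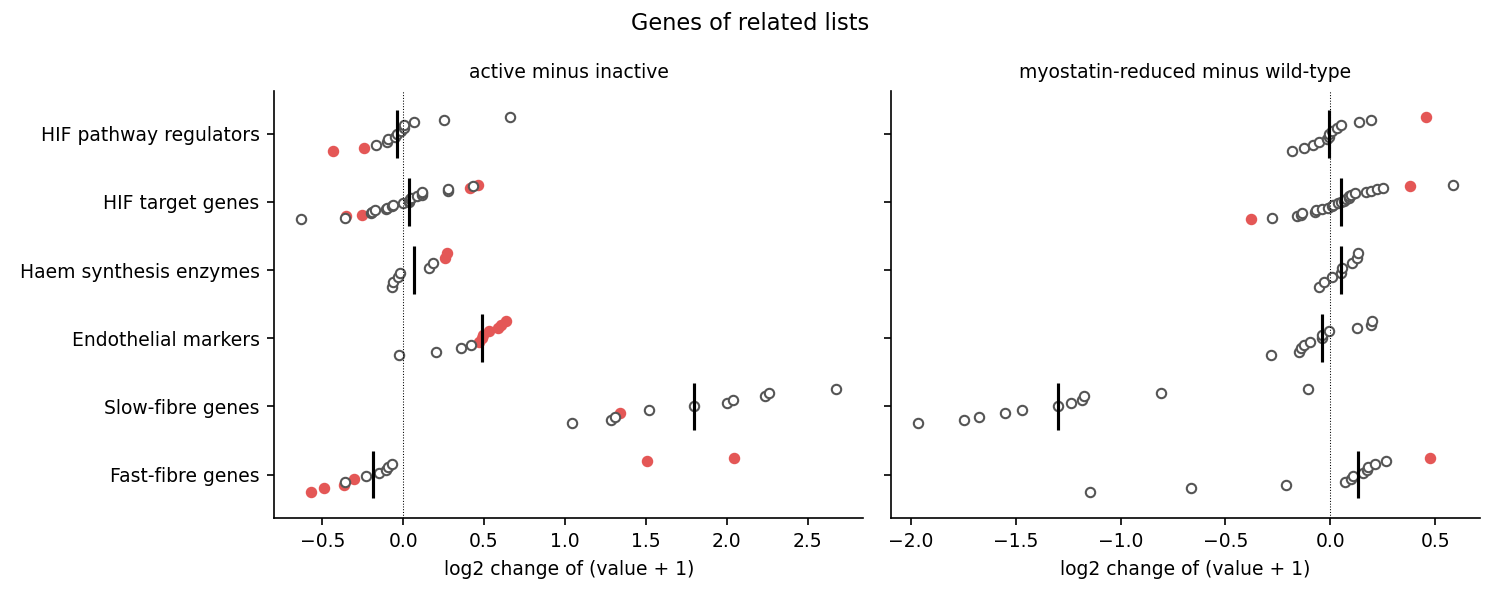
Log2 change with activity and with genotype of the genes of each list (points), filled in red where limma called the gene, with the median of the list as a black bar. The endothelial list has a median of 0.49 with activity and the slow-fibre list 1.80, while the HIF target list has a median of 0.03.

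Fibre and cell-type markers gave the setting of these values, beside 14.5% of all genes called with activity and 5.78% with genotype. All 11 slow-fibre genes were above 0 with activity (median log2 change 1.80), but with their wide spread 1 was called, Casq2, the slow-fibre calsequestrin (1.34, adjusted p = 0.00306, limma), and 7 were called without AW mouse 1 and 2 without IW mouse 1 or AM mouse 3. With genotype the median was -1.30 and none was called, Csrp3 having the smallest p (log2 change -1.24, adjusted p = 0.178, limma). Myh7, the slow myosin heavy chain, ranged from 1.29 to 375.5 normalized reads in inactive and from 2.73 to 498 in active mice. Of the 12 fast-fibre genes 2 rose with activity, Myh2 (2.04, adjusted p = 0.0251, limma) and Myh1 (1.51, adjusted p = 0.0019, limma), and 4 fell, among them Myh4 (-0.57, adjusted p = 0.0127, limma). The number of fast-fibre genes called with activity was 2 without IW mouse 2, AW mouse 2 or AW mouse 3 and 3 without IW mouse 3, IM mouse 3 or AM mouse 2. With genotype Actn3 was the 1 fast-fibre gene to rise (0.47, adjusted p = 0.0392, limma), and no fast-fibre gene was called with genotype when any mouse but IW mouse 2, AW mouse 1 or AM mouse 2 was left out. Of the 7 skeletal muscle markers 2 fell with activity, Myh4 and Ryr1 (-0.39, adjusted p = 0.00294, limma), and none was called with genotype, Ckm having the smallest p (0.31, adjusted p = 0.0713, limma). Markers of mural cells (7 tested), fibroblasts (6), leukocytes (2) and Schwann cells (3) had no call with activity or genotype by limma. Their smallest unadjusted p was 0.00962, for Rgs5 with activity. Fabp4 was the 1 of 2 adipocyte markers that rose with activity (0.64, adjusted p = 0.00331, limma), and Alas2, the 1 red cell marker in the table, was at 2.11 to 7.19 normalized reads.

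Across the members the order of the levels per kilobase of exon, as the mean over 12 mice, was Mb (1820.0), Egln1 (99.9), Hif1an (66.6), Epas1 (38.3), Egln2 (38.3), Egln3 (23.4), Hif1a (4.29) and Vhl (2.85). Mb was far above all others, ranging from 227 to 3870.0 reads per kilobase. Read mouse by mouse, Egln1 was above Hif1an in 11 of 12 mice, IM mouse 2 being the exception, and Hif1an was above Epas1 in 12 of 12. Epas1 was above Egln2 in 6 of 12 mice, so the order of this pair was not set. Egln2 was above Egln3 in 9 of 12 mice. In inactive mice the range of Egln3 (7.93 to 13.4) did not overlap that of Egln2 (35.9 to 42.5) or Epas1 (31.0 to 39.6), whereas in active mice the ranges of Egln3 (25.3 to 51.6), Egln2 (32.1 to 41.7) and Epas1 (30.9 to 55.8) overlapped. Hif1a was above Vhl in 12 of 12 mice, with overlapping ranges (3.42 to 4.88 and 2.12 to 3.48). With the longest transcript as the length, Egln2 (50.8) stood above Epas1 (38.3).

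The genes whose pattern was most like that of each member were found by Pearson correlation of log2 values over the 12 mice, among 2555 genes whose mean reached 50 normalized reads. The mice of all groups were pooled, so r also holds the differences between groups, and it is given as a description. Mb was most like Acadl (r = 0.99, rho = 0.979), Acat1 (r = 0.987, rho = 0.972) and Adk (r = 0.98, rho = 0.937). The first is a mitochondrial enzyme of fatty acid oxidation, the next a mitochondrial thiolase and the last adenosine kinase. Egln3 was most like Prdx5 (r = 0.985), Ckmt2 (r = 0.976) and Prdx2 (r = 0.973), which encode peroxiredoxins and the muscle mitochondrial creatine kinase. Egln1 was most like Ndufa6 (r = 0.973), a subunit of respiratory complex I, Mrpl18 (r = 0.973), a mitochondrial ribosomal protein, and Gnpat (r = 0.972). Egln2 was instead most like Mylpf (r = 0.962), a fast-fibre myosin light chain, Atf4 (r = 0.961) and Amigo1 (r = 0.958). Hif1an was most like Aff1 (r = 0.974), Osbpl6 (r = 0.965) and Nek9 (r = 0.962). Epas1 was most like Ehd2 (r = 0.973), Bag3 (r = 0.966) and Cxcl12 (r = 0.964). Hif1a, compared with 2556 genes, reached lower values, with Skiv2l2 (r = 0.877), Rhot1 (r = 0.866) and Zeb1 (r = 0.863).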

How the data were processed

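Polyadenylated RNA of the triceps brachii was sequenced by the authors as single-end reads of 65 bases on an Illumina Genome Analyzer IIx. The authors mapped them with CASAVA (version not given in the sources used here) to mm9, counted reads in RefSeq exons and summed them to genes. The values as deposited are a signal, read counts per gene that the authors scaled to equal trimmed means without the highest and lowest 5th percentiles, and not divided by gene length. The table held 10187 genes, all 12 columns were matched to a sample by name, and the highest group mean of every gene was at least 3.0. Each mouse's depth came from the gaps among its low values (0.077 to 0.105 normalized reads per read). Whole multiples of that gap, within 0.0101, made up 91.5% to 92.8% of values under 5 and 12.0% to 75.5% of those from 20 to 50, so whole reads were not recovered for nearly all genes and no count model was run. The floor of 3 reads covers counting error only.

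Tests used limma (version 3.58.1, R 4.3.3) on values as log2(value + 1), which understates changes of low genes, for genes with a mean of at least 10. A mean per group was fitted to all 12 mice (eBayes with trend), p-values were two-sided, and Benjamini-Hochberg adjustment was over the 7247 genes. Calls needed an adjusted p under 0.05. Replicates are different mice. The comparisons within a level share groups with the activity and genotype contrasts and with each other. The script was tested on simulated data. The members and the lists were chosen with earlier results of these data known. Named genes were limited to the 8 members, Mstn, up to 4 called genes of a list and contrast with the largest change or the gene of smallest p where none was called, the 3 genes most like each member, and Myh7, Myh4, Pecam1 and Cdh5. Acta1 and genes named for an overlap with a member are outside that rule and were named after values were seen. Positions and exon lengths came from the NCBIM37 annotation. Alternatives were other pseudocounts, filters, scaling, weights, a replicate block, covariates and each mouse left out. Replicate numbers are shared by the groups, and the labels tie none of them to a litter or day. The deviations of same-numbered mice from their group means correlated at 0.17 to 0.32 in all 3 pairs of IM and AM mice. In the other comparisons they correlated at -0.53 to 0.48, and not every pair was above 0.1. No pairing was assumed, and the block is an alternative only.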

Additional observations from a re-analysis of the deposited data

How the results depend on the processing

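The alternatives were pseudocounts of 0.5 and 5, no filter or a minimum mean of 50, median-of-ratios scaling, eBayes without trend, sample weights, a replicate block, and the slow-fibre or the endothelial score as a covariate, beside leaving out each mouse. Apart from the mice left out, 613 values kept their direction and their side of the threshold or stayed within the spread, 16 reversed 12 passed the threshold, 6 no longer passed it and 58 moved, and the cause was not tested. With sample weights 1740 genes were called for activity, 415 for activity in wild-type mice, 931 for activity in myostatin-reduced mice and 334 for genotype in inactive mice. With the slow-fibre score these counts were 401, 28, 187 and 115, and 29 for genotype in active mice. With the endothelial score they were 8 for activity, 0 for activity in myostatin-reduced mice and 65 for genotype in inactive mice. With a minimum mean of 50, 272 genes were called for genotype, 39 for activity in wild-type mice and 7 for genotype in active mice. Members called for activity were 4 with sample weights, 1 with the slow-fibre score and 0 with the endothelial score, and for genotype 1 with a minimum mean of 50, 2 with sample weights and 1 with the endothelial score.

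With the endothelial score the log2 change with activity was 0.196 for Egln1, 1.439 for Egln3, 0.036 for Hif1a, -0.125 for Hif1an and -0.056 for Epas1, with genotype -0.161 for Egln1 and 0.017 for Egln3, and for the interaction 0.124 for Egln2, -0.012 for Egln3 and 0.052 for Hif1an. Within levels it was -0.058 and -0.055 for Epas1 with activity in wild-type and in myostatin-reduced mice, 0.05 for Egln2 with activity in myostatin-reduced mice, and 0.023 for Egln3 and 0.111 for Epas1 with genotype in inactive mice. With the slow-fibre score Hif1an had -0.2 for activity, Egln3 0.206 for genotype and 0.094 for genotype in inactive mice, and Egln2 0.053 for the interaction. With sample weights Egln2 had -0.154 and Epas1 0.38 for activity, Egln1 -0.191 and Egln2 0.196 for genotype, and Egln2 0.061 for the interaction, which was 0.002 with median-of-ratios scaling. With a minimum mean of 50 Egln1 had -0.172 for genotype.

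Same-numbered IM and AM mice correlated at 0.17 to 0.32 in their deviations from the group means, and those of other groups at -0.53 to 0.48. The labels give no pairing, and these values do not establish that IM and AM mice were paired. The replicate block is therefore an alternative only. With the replicate block 0 genes were called for activity in wild-type mice (1089 at an unadjusted p under 0.05), 98 for genotype in inactive mice and 9 for genotype in active mice, and Epas1 had 0.297 for activity (adjusted p = 0.0477, limma) and 0.502 for activity in myostatin-reduced mice (adjusted p = 0.0361, limma). No other call of a member changed with the block.

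In the fits that each left out 1 mouse, 552 to 1485 genes were called for activity, 180 to 579 for genotype, 0 to 1 for the interaction, 0 to 198 for activity in wild-type mice (198 without AW mouse 1), 85 to 1098 for activity in myostatin-reduced mice, 23 to 216 for genotype in inactive mice and 4 to 15 for genotype in active mice. Members called numbered 2 to 4 for activity and 0 to 2 for genotype, with the highest counts without AW mouse 1. The log2 change with activity was -0.172 to -0.097 for Egln2 and 0.228 to 0.378 for Epas1. That with genotype was -0.197 to -0.147 for Egln1, 0.143 to 0.218 for Egln2, -0.133 to 0.058 for Egln3, -0.047 to 0.067 for Hif1a and -0.001 to 0.153 for Epas1, and the interaction of Egln2 was -0.056 to 0.094. Within wild-type mice activity gave -0.105 to 0.122 for Hif1a and -0.02 to 0.239 for Epas1, and genotype within active mice gave -0.035 to 0.347 for Egln3. Precision rests on 3 mice a group, within which Mb spread up to 2.72-fold, and Vhl, at 6.34 to 10.4 normalized reads, had the fewest reads of the members.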
